A study of Mus musculus with 6 samples.

Results

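Cholesterol and fatty acid synthesis were followed through 31 genes, 17 of them enzymes of the sterol pathway, 6 of them genes that sense or carry sterols, and 8 of them genes of fatty acid synthesis. A gene was represented by the probe set that carried its symbol alone and had the highest mean over the 6 arrays. Of the 31 genes, 30 were on the array under such a probe set, with Acat2 the exception, and 29 passed the filter of a mean of at least 4 on the log2 scale, with Scd1 below it. Those 29 stood among 9679 genes tested under 1 symbol. The tissue was epithelium from jejunal crypts of C57BL/6 mice aged 3 months. One group, KO 1 to KO 3, lacked functional Sox9 and the other, WT 1 to WT 3, held wild-type littermates, and each mouse gave 1 array. The sources used here do not name the allele, what drove the deletion or when, or the sex of each animal, and nothing was labelled as shared between same-numbered mice. All values are log2 GCRMA intensities, differences are KO minus WT on that scale, and p-values describe the spread between these 6 animals.

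Cells build cholesterol from acetyl-CoA through mevalonate, isoprenoids, squalene and lanosterol, in a series of enzymes on the endoplasmic reticulum and in the cytosol. When membrane sterol is low, the transcription factors SREBP-1 and SREBP-2 (Srebf1 and Srebf2) are escorted from the endoplasmic reticulum by Scap and cleaved, and they then raise transcription of sterol and fatty acid enzymes. When sterol is high, the Insig proteins hold Scap back. The small intestine is a major site of cholesterol synthesis in the body, and dividing crypt cells need new membrane.

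The promoters of Hmgcs1, Insig1 and Srebf2 are shown because Hmgcs1 and Insig1 were the genes of the sterol part whose arrays separated the groups, and because Srebf2, the activator of the pathway, did not. Each run is the 250 bases before the RefSeq start on the plus strand of GRCm38.p6, at chr13:119690101-119690350 for Hmgcs1, chr5:28071162-28071411 for Insig1 and chr15:82147019-82147268 for Srebf2. Capitals mark matches on either strand to an SRE-like element (TCACNCCA), a CCAAT box (CCAAT) or an E-box (CACGTG), and no match overlapped another.
Hmgcs1: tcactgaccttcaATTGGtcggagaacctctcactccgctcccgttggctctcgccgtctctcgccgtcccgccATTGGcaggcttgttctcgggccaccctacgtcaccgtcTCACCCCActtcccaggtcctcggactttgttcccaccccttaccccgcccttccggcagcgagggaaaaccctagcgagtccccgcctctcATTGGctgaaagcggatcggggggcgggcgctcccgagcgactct
Insig1: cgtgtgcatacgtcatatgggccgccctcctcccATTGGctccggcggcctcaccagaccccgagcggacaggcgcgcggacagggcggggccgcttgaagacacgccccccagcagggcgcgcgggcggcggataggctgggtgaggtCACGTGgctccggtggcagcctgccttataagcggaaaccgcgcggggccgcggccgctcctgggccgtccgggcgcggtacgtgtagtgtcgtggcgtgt
Srebf2: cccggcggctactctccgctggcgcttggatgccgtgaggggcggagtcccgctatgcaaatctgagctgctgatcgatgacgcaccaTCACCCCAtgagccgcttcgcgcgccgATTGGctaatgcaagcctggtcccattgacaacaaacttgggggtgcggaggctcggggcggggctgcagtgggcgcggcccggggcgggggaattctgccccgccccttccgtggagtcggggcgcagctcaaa
The SRE-like letters lay 137 bases before the start in Hmgcs1 and 162 bases before it in Srebf2, and the E-box lay 101 bases before the start of Insig1. RefSeq promoters of this kind were at hand for 25 of the 31 genes (34 promoters in all). Of these 34 promoters, 21 (61.8%) held a CCAAT box, against 33.8% of all 32851 promoters. An E-box was found in 5 (14.7%, against 6.02% of all) and the SRE-like element in 2 (5.88%, against 3.67%). These matches describe letters and say nothing of binding.

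The targeted gene and the makeup of the samples bear on every comparison. One Sox9 probe set read 2.42 to 2.75 in the KO arrays and 5.84 to 7.61 in the WT arrays (limma adjusted p = 0.188), another overlapped (5.33 to 6.34 against 2.68 to 6.23), and the third was dim in both groups. Which of them lie in the deleted part is unknown here. All 8 epithelial markers were bright (summed log2 level 17.02 to 17.39 in KO, 17.27 to 17.34 in WT). Of 6 adipocyte markers on the array, 5 were below the filter, among them Adipoq, Fabp4 and Lep, and 7 of 8 stroma and muscle markers were below it too. Paneth cell markers were lower in KO (summed log2 level 16.83 to 17.36, against 17.62 to 17.79 in WT, with 6 of 7 genes lower), and leukocyte markers were higher in KO (10.12 to 10.79, against 7.01 to 9.998 in WT, lowest on WT 1, with 5 of 5 tested genes higher). Both sums separated the groups. The sums of cycling cell, enterocyte and crypt base stem cell markers overlapped, but most of their genes were higher in KO. Lower in KO were 0 of 8 cycling cell, 2 of 10 enterocyte and 2 of 7 crypt base stem cell markers, against 46.1% of all probe sets tested. Pancreatic markers stood out on KO 2 alone, at a summed log2 level of 12.95 against 6.88 to 7.999 on the other 5 arrays. Y-linked signal, the mean of Eif2s3y, Kdm5d and Uty, read 7.85 on WT 1 and 8.34 on WT 2 but 2.71 to 2.83 on the other 4 arrays. The Gapdh control's 3' minus 5' difference, a sign of RNA quality, was largest on WT 3 (1.75, against 0.37 to 0.91). The array weight from limma, which is low where an array departs from its group, was smallest on KO 1 (0.29, against 0.77 to 2.5). Because the samples are bulk, fewer cells of a type and less RNA per cell cannot be told apart.

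No gene of the set passed the test. Across 18108 probe sets, limma with Benjamini-Hochberg adjustment called 2 at an adjusted p of 0.05 (0.011%), and 0 of the 29 genes were among them, each at an adjusted p of 0.999. At an unadjusted p of 0.05, 1 of the 29 was lower in KO (Hmgcs1) and 0 were higher, where 1.81% of all probe sets were lower and 1.81% higher. The KO and WT arrays did not overlap in 2 genes that were lower in KO (Hmgcs1 and Insig1) and in 1 that was higher (Acaca), where 4.03% of all probe sets were so separated with KO lower and 5.09% with KO higher. The shares among the 29 genes were therefore near those of the array as a whole. The smallest two-sided p that an exact permutation test of 3 mice against 3 can give is 0.1, and Hmgcs1, Insig1 and Acaca each had that value.

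**Figure D1:**
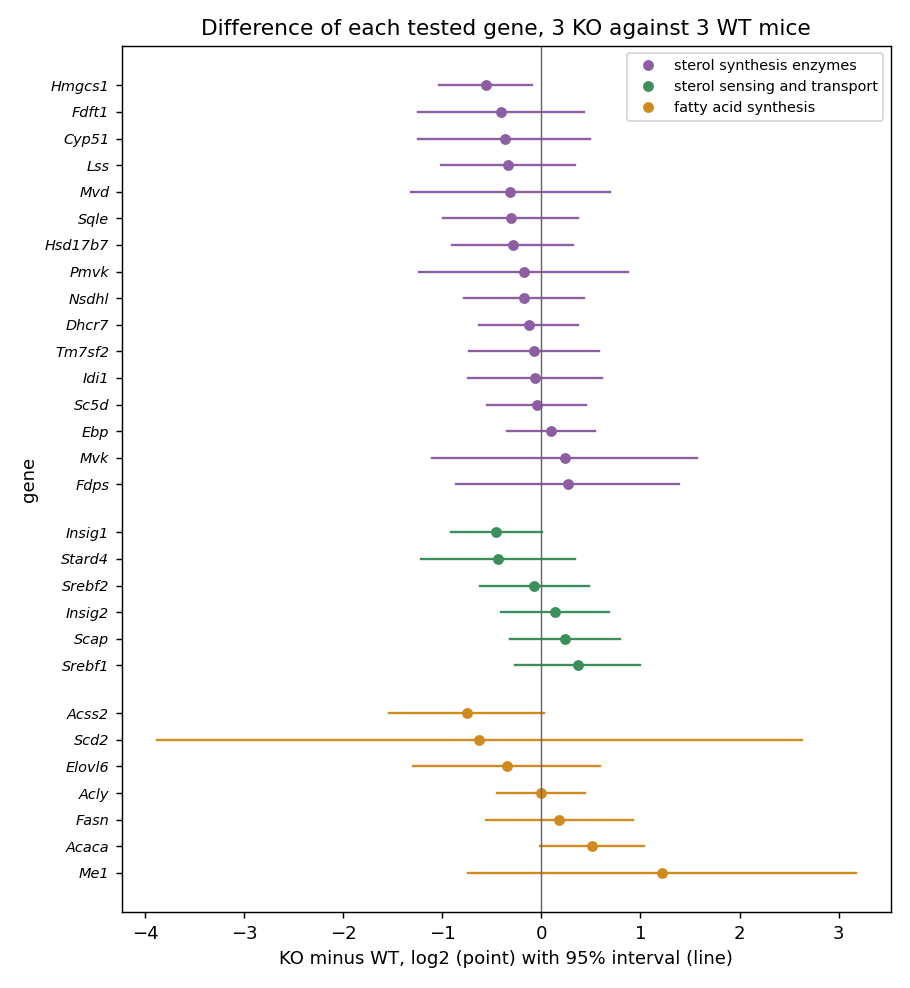
Difference KO minus WT on the log2 scale (horizontal axis) for the 29 tested genes (vertical axis), with the 95% interval from limma, not adjusted for the number of genes. The interval of Hmgcs1 lies below 0, the other 28 cross 0, and Scd2 has the widest interval.

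The sterol enzymes lay mostly lower in KO, by small amounts. Of 16 measured enzymes, 13 had a negative difference and 3 a positive one, and the median difference was -0.17. Over all probe sets tested, 46.1% were negative and the median was 0.03. The differences ran from -0.56 (Hmgcs1) to 0.26 (Fdps).

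Hmgcs1, the cytosolic synthase that makes the HMG-CoA of the pathway, was the enzyme with the smallest p. It read 12.0 on KO 1, 12.21 on KO 2 and 11.95 on KO 3, and 12.39 on WT 1, 12.86 on WT 2 and 12.60 on WT 3. Every KO array thus lay below every WT array, the closest pair being KO 2 and WT 1. KO averaged 12.06 ± 0.14 and WT 12.62 ± 0.24 (SD over 3 mice each), so that WT was 1.48-fold higher, with a difference of -0.56 ± 0.20 (SE; 95% interval -1.03 to -0.10). Its 5 tested probe sets all had a negative difference, from -0.64 to -0.39, and the groups were separated on 4 of them. The difference stayed between -0.68 and -0.44 with each array left out, and was -0.53 once Y-linked signal entered the model and -0.57 once the Gapdh measure did. All KO arrays lacked Y-linked signal, and WT 3 was the only WT array that did. Here and below, a difference with that signal in the model therefore compares the KO arrays almost wholly with WT 3. It cannot separate the signal from the genotype. The part of the Paneth cell and leukocyte markers, whose sums separate the same mice, was not tested here. Nor was it tested for Insig1, Acaca or the surrounding genes whose groups did not overlap.

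The enzymes between mevalonate and farnesyl diphosphate did not share a clear direction. Mvk, the mevalonate kinase, differed by 0.24 on the probe set shown and by -0.47 on its other one, so its probe sets disagreed. Pmvk, the next kinase, differed by -0.18, and Mvd, the decarboxylase that gives isopentenyl diphosphate, by -0.32. Idi1, the isomerase, differed by -0.07 and Fdps, the farnesyl diphosphate synthase, by 0.26. On the probe set shown for each of these 5 genes WT 3 was the lowest of all 6 arrays. On the other tested probe set WT 3 was again lowest for Mvd (6.25). There KO 2 was lowest for Mvk (5.30, against 5.38 on WT 3) and KO 3 for Idi1 (9.40, against 9.53 on WT 3). For Fdps WT 3 read 8.87, while the other 5 read 9.85 to 10.65.

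The enzymes that turn farnesyl diphosphate into lanosterol also varied from mouse to mouse. Sqle, the squalene epoxidase and a control point of the pathway, read 9.64, 9.48 and 9.10 in KO and 9.84, 10.10 and 9.22 in WT, in order of mouse number. WT 1 and WT 2 were above all KO arrays, whereas WT 3 was below KO 1 and KO 2. The difference was -0.31 ± 0.28 (SE), or -0.56 without WT 3, -0.12 without WT 2 and 0.20 once Y-linked signal entered the model. Fdft1, the squalene synthase, read 10.96, 10.27 and 9.65 in KO and 10.81, 10.91 and 10.39 in WT. KO 1 was the highest of the 6 and KO 3 the lowest, and the difference was -0.41 ± 0.35 (SE), or -0.74 without KO 1, -0.09 without KO 3 and -0.08 once Y-linked signal entered the model. Lss, the cyclase that forms lanosterol, read 7.87, 7.74 and 7.24 in KO and 8.22, 8.17 and 7.47 in WT, again with WT 3 inside the KO range. Its difference was -0.34 ± 0.28 (SE), or -0.58 without WT 3, -0.15 without KO 3 and 0.14 once Y-linked signal entered the model.

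After lanosterol, Cyp51, the demethylase that acts first on it, read 9.19, 9.63 and 9.19 in KO and 10.21, 9.99 and 8.93 in WT. WT 1 and WT 2 were the highest arrays and WT 3 the lowest. The difference was -0.37 ± 0.36 (SE), or -0.76 without WT 3, -0.12 without WT 1 and 0.39 once Y-linked signal entered the model. The other tested probe set of Cyp51 differed by -0.61. Hsd17b7, a ketoreductase that works on the sterol nucleus, read 6.99, 7.26 and 7.13 in KO and 7.08, 7.91 and 7.26 in WT, where WT 2 alone was high (difference -0.29 ± 0.26, SE, or -0.05 without WT 2). The other enzymes after lanosterol lay closer to 0, namely Tm7sf2 (a sterol reductase, -0.08), Nsdhl (a decarboxylating dehydrogenase, -0.17), Ebp (an isomerase, 0.10), Sc5d (a desaturase, -0.05) and Dhcr7 (the reductase of the last step, -0.13). Their 95% intervals reached at most from -0.78 to 0.58, so larger changes than these in these 5 enzymes lay outside the intervals.

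**Figure D2:**
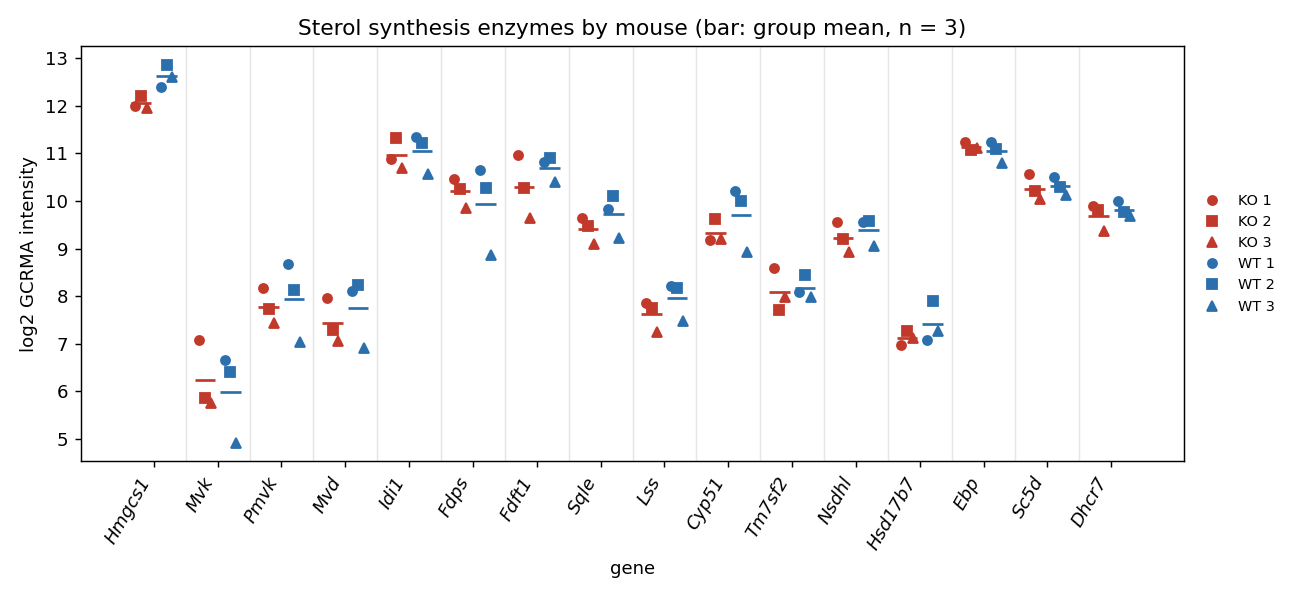
Log2 GCRMA intensity (vertical axis) of the 16 sterol synthesis enzymes (horizontal axis) on each array, KO in red and WT in blue, with the mean of each group as a bar. WT 3 (blue triangle) lies below WT 1 and WT 2 in 14 of the 16 enzymes, and Hmgcs1 is the only one of them in which each KO array lies below each WT array.

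The spread between mice was larger than the difference between groups. The median deviation of the 16 enzymes from each gene's own mean was 0.20, -0.09 and -0.36 in the KO mice and 0.29, 0.30 and -0.30 in the WT mice, in order of number. WT 3 therefore lay with KO 3, and KO 1 near WT 1 and WT 2. WT 3 was the lowest WT array in 14 of 16 enzymes, against 34.9% of all probe sets tested, and KO 3 was the lowest KO array in 12 of 16, against 25.0%. KO 1 was the highest KO array in 12 of 16, against 38.1%. The enzymes share these 6 arrays and are not independent of each other, so the counts describe the mice and carry no test.

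The median stayed negative with each array left out, but its size moved. Without WT 3 all 16 enzymes were negative, with a median of -0.36, and without KO 3 10 of 16 were negative, with a median of -0.02. WT 3 was also the WT array that lacked Y-linked signal and had the largest Gapdh 3' minus 5' difference. Once Y-linked signal entered the model 3 of 16 enzymes were negative (median 0.19), and among the 4 arrays without that signal, KO 1 to KO 3 and WT 3, the KO mean was lower in 3 of 16 (median 0.18, with 1 WT array and so no test). The arrays with the signal hold WT samples alone and give no value. Once the Gapdh measure entered it 15 of 16 were negative (median -0.32). Since 1 WT mouse alone lacked the signal, the model with Y-linked signal also sets the KO arrays almost wholly against WT 3. The medians of 0.19 and 0.18 thus come from nearly the same comparison, and neither backs the other. What the signal and what the genotype contribute can barely be told apart in these mice.

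**Figure D3:**
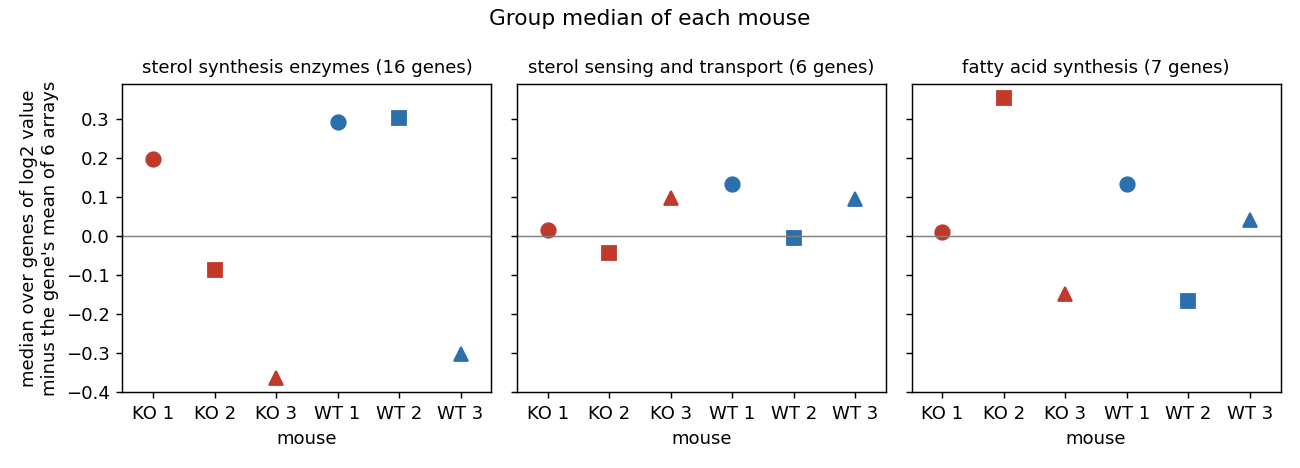
Median over the genes of each branch of the log2 value minus the gene's mean over 6 arrays (vertical axis), for each mouse (horizontal axis). In the sterol enzymes KO 3 and WT 3 lie lowest (-0.36 and -0.30). The median of the sterol sensing and transport genes stays within 0.14 of 0 on every array, though single genes such as Stard4 lie further out.

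Among the genes that sense and carry sterol, 3 of 6 were lower and 3 higher, with a median of 0.03. Insig1, which retains Scap and is itself a target of SREBP, read 9.48, 9.57 and 9.08 in KO and 9.78, 9.91 and 9.80 in WT, in order of mouse number. The WT arrays lay close together and above all KO arrays, and WT 3 did not fall away from WT 1 and WT 2 as it did in most enzymes. KO averaged 9.38 ± 0.26 and WT 9.83 ± 0.07 (SD over 3 mice each), which differ by -0.45 ± 0.19 (SE; 95% interval -0.92 to 0.01). It was -0.55 to -0.31 with each array left out, and -0.41 once Y-linked signal entered the model.

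Insig2, a second retention protein, differed by 0.14, and its 3 tested probe sets ran from -0.23 to 0.43. Srebf1, the SREBP more tied to fatty acid synthesis, read 9.98, 9.19 and 9.18 in KO and 9.21, 8.92 and 9.11 in WT. KO 1 alone was high, and the difference of 0.37 became 0.10 without it. Srebf2, the SREBP more tied to sterol synthesis, read 6.70, 7.24 and 7.17 in KO and 7.31, 6.84 and 7.17 in WT, and the groups overlapped throughout (difference -0.07, 95% interval -0.62 to 0.48). Scap, the escort protein, differed by 0.24, or 0.02 without WT 2. Stard4, a carrier of cholesterol between membranes, read 10.49, 11.24 and 11.74 in KO and 11.55, 11.60 and 11.64 in WT. KO 1 was low and KO 3 the highest of the 6, and the difference of -0.44 became -0.10 without KO 1.

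Fatty acid synthesis had no common direction, with 4 of 7 tested genes lower and 3 higher and a median of -0.01. Their median within-group SD was 0.46, against 0.33 over all probe sets tested, though Acly and Acaca varied less between mice than most probe sets. KO 2, the array with pancreatic markers, was the highest KO array in 5 of the 7 genes, against 26.5% of all probe sets, and the part of pancreatic RNA in this was not tested.

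The enzymes that supply acetyl-CoA differed from each other. Acly, which makes it from citrate, was level between the groups (difference -0.01, 95% interval -0.45 to 0.44). Acss2, which makes it from acetate, read 9.07 on KO 1, 7.85 on KO 2 and 8.08 on KO 3, and 9.06, 9.10 and 9.10 on WT 1 to WT 3. The WT arrays were nearly equal, KO 1 lay with them, and KO 2 and KO 3 were lower, which gave a difference of -0.75 ± 0.33 (SE; 95% interval -1.54 to 0.03). The difference was -1.12 without KO 1 and -0.51 without KO 2. On its other tested probe set Acss2 differed by -0.49, and all KO arrays (8.07 to 8.74) lay below all WT arrays (8.75 to 8.86), though KO 1 and WT 1 were only narrowly apart.

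Acaca, the acetyl-CoA carboxylase that makes malonyl-CoA, was the fatty acid gene whose groups did not overlap. It read 7.18, 7.34 and 7.20 in KO and 6.96, 6.34 and 6.89 in WT, in order of mouse number. All KO arrays were above all WT arrays, and WT 2 stood lowest. KO averaged 7.24 ± 0.09 and WT 6.73 ± 0.34 (SD over 3 mice each), which differ by 0.51 ± 0.22 (SE; 95% interval -0.01 to 1.04), or 0.32 without WT 2 and 0.33 once Y-linked signal entered the model. WT 2 also had the lowest summed level of 8 cycling cell markers (14.06, against 14.68 to 14.95 elsewhere). It was the lowest WT array in 7 of 7 crypt base stem cell markers, against 37.2% of all probe sets tested. Their sum on WT 2 (14.64) was near that on KO 1 (14.66) and KO 2 (14.65). The part of both lists in the low WT 2 values of Acaca, Fasn and Me1 was not tested. Fasn, the synthase that uses malonyl-CoA, read 9.18, 9.82 and 9.38 in KO and 9.57, 8.70 and 9.56 in WT. WT 2 was again the lowest array, and without it the difference of 0.18 turned to -0.11.

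Elongation and desaturation genes followed single mice. Elovl6, which lengthens palmitate, read 9.37, 10.92 and 10.15 in KO and 10.44, 10.76 and 10.30 in WT. KO 1 was the lowest and KO 2 the highest of the 6, and the difference of -0.35 turned to 0.04 without KO 1. Scd2, a stearoyl-CoA desaturase, read 10.60, 6.31 and 8.70 in KO and 11.28, 9.12 and 7.09 in WT. It spanned 4.97 log2 units over the 6 mice with both groups spread widely, and its within-group SD of 2.12 was above that of 99.6% of probe sets tested. Its difference of -0.63 was from -1.66 without WT 3 to 0.49 without KO 2. Its values are given because of that spread, after they were seen. Scd1, the related desaturase, read 2.31, 4.16 and 2.24 in KO and 2.28, 2.25 and 2.97 in WT. It was dim except on KO 2, the array with pancreatic signal, and the part of that signal was not tested. Its other probe set was dim on every array (2.48 on KO 2). Scd1 itself was not tested in limma.

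Me1, the malic enzyme that supplies NADPH for fatty acid synthesis, had the largest difference of the 29 genes but not a separated one. It read 8.45 on KO 1, 11.02 on KO 2 and 10.68 on KO 3, and 9.26, 7.57 and 9.67 on WT 1 to WT 3. KO 2 and KO 3 were above all WT arrays, whereas KO 1 lay between WT 2 and WT 1. KO averaged 10.05 ± 1.39 and WT 8.84 ± 1.11 (SD over 3 mice each), which differ by 1.22 ± 0.82 (SE; 95% interval -0.74 to 3.17). Its other probe set gave 1.27 with the same 2 arrays highest. The difference was 2.01 without KO 1, 0.58 without WT 2 and 0.28 once Y-linked signal entered the model.

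**Figure D4:**
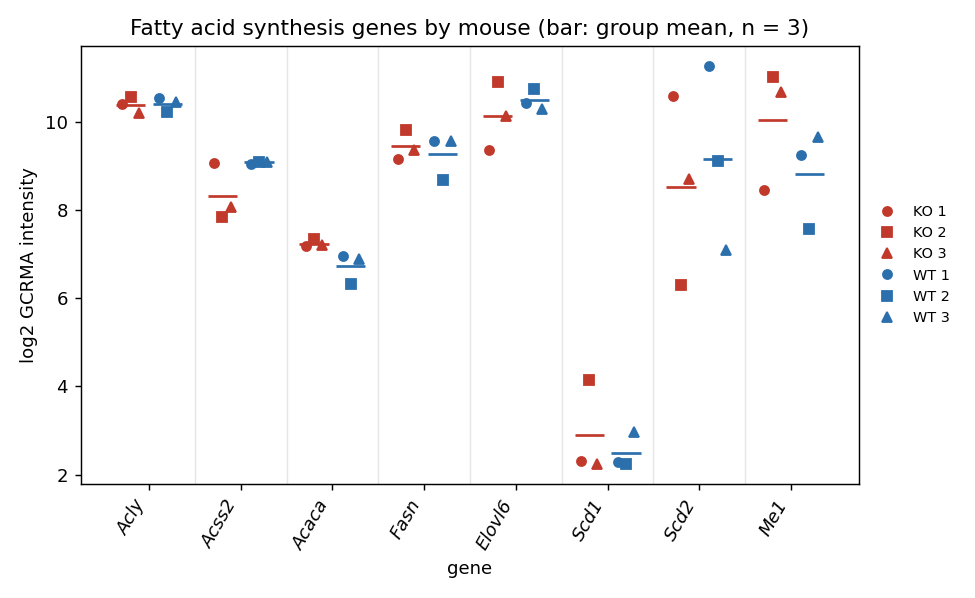
Log2 GCRMA intensity (vertical axis) of the 8 fatty acid synthesis genes on the array (horizontal axis) in each mouse, KO in red and WT in blue, with the mean of each group as a bar. Acaca has all KO arrays above all WT arrays, Acss2 has 3 nearly equal WT arrays, and Scd2 and Me1 vary by over 3 log2 units between mice.

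Agreement between probe sets was checked where a gene had several. Of the 29 genes, 13 had more than 1 probe set past the filter with the same sign on each, 3 had probe sets of mixed sign (Acly, Insig2 and Mvk), and 13 had a single one. The sterol enzymes Hmgcs1, Fdft1, Lss, Cyp51, Mvd, Idi1, Sc5d and Hsd17b7 were negative on every tested probe set.

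Genes around the pathway gave a like picture, and 0 of the 58 tested passed in limma, each with an adjusted p of 0.999 or above. The groups did not overlap in Pdss2, Mbtps2, Fads1 and Prkaa2, which were lower in KO, and in Lpcat3 and Lpin2, which were higher, where 4.03% and 5.09% of all probe sets were so separated. Other sterol and isoprenoid enzymes were lower in 3 of 7 (median 0.00). In that list Msmo1, an oxidase that acts later than Cyp51, differed by -0.40. The coenzyme Q enzyme Pdss2 differed by -0.21 and the farnesyltransferase subunit Fntb by 0.23. Genes of SREBP processing and sterol release were lower in 5 of 10 (median -0.01), with the site-1 protease Mbtps1 at 0.29, the site-2 protease Mbtps2 at -0.30 and the lysosomal sterol carrier Npc2 at 0.39. Sterol efflux and LXR target genes were lower in 3 of 7 (median 0.18). Abcg5 and Abcg8, whose products form the sterol exporter of the brush border, differed by 0.40 (-0.04 without WT 1) and 0.68 (0.31 without WT 1), and the acyltransferase gene Lpcat3 by 0.37. WT 1 was the lowest array for both exporter genes and had the lowest summed level of 10 enterocyte markers too (17.76, against 18.07 to 18.38 elsewhere), whose part was not tested.

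On the fatty acid side, other elongases, desaturases and their partners were lower in 5 of 11 (median 0.05). Fads1, the delta-5 desaturase of polyunsaturated fatty acids, read 8.51, 8.33 and 7.35 in KO and 9.37, 8.54 and 9.14 in WT, in order of mouse number. All KO arrays were below all WT arrays, KO 1 and WT 2 being nearly level (difference -0.95, limma adjusted p = 0.999). In the same list Fads3 differed by 0.57 (0.19 without KO 2, the array with pancreatic signal), and the reductase gene Tecr by 0.28. Genes of carbon supply and lipogenic control were lower in 6 of 12 (median -0.06). Prkaa2, a catalytic subunit of the AMP-activated kinase, read 6.43, 7.49 and 7.75 in KO and 8.16, 8.65 and 7.97 in WT, with each KO array below each WT array (difference -1.04, limma adjusted p = 0.999). In that list Pgd of the pentose phosphate pathway differed by -0.27 and the sugar-responsive factor Mlxip by 0.48. Glycerolipid assembly genes were lower in 4 of 11 (median 0.04), with the phosphatidate phosphatase gene Lpin2 at 0.60, the lipid droplet gene Plin2 at 0.36 and the acyltransferase gene Agpat2 at 0.29.

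Most of these surrounding values moved with single mice. As above, a model with Y-linked signal compares the KO arrays almost wholly with WT 3. Once Y-linked signal entered the model, Msmo1 (0.02), Fntb (-0.09), Pgd (0.06) and Mlxip (-0.15) changed sign. The same term made the difference smaller in Mbtps1 (0.01), Abcg5 (0.07), Plin2 (0.08), Npc2 (0.13) and Abcg8 (0.25). Smaller too were Mbtps2 (-0.20), Lpin2 (0.32) and Prkaa2 (-0.74). It was larger in size in Pdss2 (-0.28), Tecr (0.33), Agpat2 (0.36), Lpcat3 (0.45) and Fads1 (-1.1), and Fads3 stayed at 0.57. Without KO 1 the difference was -0.11 in Pdss2, -0.15 in Mbtps2, 0.23 in Npc2 and -0.64 in Prkaa2. Without KO 3 it was 0.07 in Fntb, 0.24 in Lpcat3 and -0.60 in Fads1. Without WT 1 it was 0.34 in Lpin2, and without WT 2 it was -0.20 in Msmo1 and 0.16 in Mlxip.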

How the data were processed

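Deposited were log2 values of 45101 probe sets on 6 arrays, which the authors made with GCRMA per the submitters' processing notes. The notes name limma as well, and no version. Dim probe sets bunch near the bottom of such values, which compresses their differences. All 6 columns belong to these samples. Control probe sets (64) were left out, and 18108 with a mean of at least 4 were tested with limma 3.58.1 under R 4.3.3 (lmFit, then eBayes, KO against WT, two-sided, 4 residual and 2.59 prior degrees of freedom) with Benjamini-Hochberg adjustment. The fit was checked on simulated data. The genes and lists were chosen with earlier results of these data known. Values on every array are given for the members of smallest unadjusted p in each branch (6, 3 and 4 genes) and for Hmgcs1, Sqle, Insig1, Srebf1, Srebf2, Fasn, Acaca and Scd1, and for Scd2, added after its values were seen; up to 3 genes of smallest p are named in each surrounding list. Lists are described by counts and medians, with no test. Arrays carry no read depth, and 3 per group limits precision. Symbols come from the platform annotation, and promoters from RefSeq (GRCm38.p6). Alternatives were a replicate block, other filters, quantile normalization, array weights, median centring, a prior that was trended and robust, averaged probe sets, terms for Gapdh 3' minus 5' and Y-linked signal, and each array left out. The restriction to arrays without Y-linked signal was chosen after seeing the data.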

Additional observations from a re-analysis of the deposited data

How the results depend on the processing

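None of the 29 genes passed an adjusted p of 0.05 under any alternative run, the smallest adjusted p in limma being 0.380 with a change of setting and 0.353 with an array left out. Array number and between-mouse spread limit these results, and the intervals were widest for Scd2 and Me1. The count of called probe sets, 2 in all, was 0 with a replicate block, 0 with no filter, 0 with the Gapdh 3' minus 5' measure in the model, 0 with Y-linked signal in it, 1 with a filter at a mean of 6, 4 with quantile normalization, 4 with median centring and 11 with array weights, and 0 (without WT 1 or WT 2) to 16 (without WT 3) with an array left out. The replicate numbers gave no sign of pairing (correlations of deviations -0.05, -0.29 and 0.03 for numbers 1 to 3). With 1 KO and 1 WT mouse per number, the block cannot change a difference, so the unchanged differences do not bear on pairing.

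Quantile normalization and median centring kept the sign of all 29 differences, and the sterol enzyme median was -0.21 in both. That median was 0.194 with Y-linked signal in the model, 0.184 in the arrays without that signal (chosen after seeing the data), and -0.358 to -0.022 with an array left out. The values 0.194 and 0.184 come from nearly the same comparison, of the KO arrays with WT 3. The sensing and transport median was -0.082 with Y-linked signal in the model and -0.055 in the arrays without it, and -0.091 to 0.096 with an array left out. The fatty acid median was -0.11 to 0.326 with an array left out.

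The replicate block, the other filters and the trended and robust prior cannot change a gene's difference, so their values could not turn sign. Of the 290 values under changed settings, these included, 21 had the opposite sign. With Y-linked signal in the model these were Pmvk 0.71, Mvd 0.54, Idi1 0.40, Cyp51 0.39, Sqle 0.20, Nsdhl 0.18, Lss 0.14, Tm7sf2 0.14, Sc5d 0.13, Dhcr7 0.0044, Scap -0.0046, Fasn -0.15 and Scd2 1.37. With the Gapdh measure in it they were Mvk -0.084, Fdps -0.14 and Acly 0.025. With array weights they were Mvk -0.16, Srebf2 0.043 and Elovl6 0.032, and with averaged probe sets Mvk -0.12 and Acly 0.11. With an array left out 16 genes kept their sign, and the other 13 ran from -0.30 to 0.57 (Mvk), -0.63 to 0.19 (Pmvk), -0.31 to 0.082 (Idi1), -0.27 to 0.62 (Fdps), -0.32 to 0.12 (Tm7sf2), -0.025 to 0.19 (Ebp), -0.20 to 0.063 (Sc5d), -0.23 to 0.030 (Dhcr7), -0.20 to 0.098 (Srebf2), -0.094 to 0.088 (Acly), -0.11 to 0.33 (Fasn), -0.74 to 0.036 (Elovl6) and -1.66 to 0.49 (Scd2). The causes were not tested.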
